A study of Mus musculus with 6 samples.

Results

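AP-1 is a family of transcription factors that bind DNA as pairs of basic leucine zipper (bZIP) proteins, and the genes described here are 10 of its members and close relatives. They are the Fos genes Fos, Fosb, Fosl1 and Fosl2, the Jun genes Jun, Junb and Jund, and 3 other bZIP genes, Atf3, Maff and Batf3. They were chosen by gene symbol, with earlier results of these data known, and all 10 were found among the 13283 genes of the deposited table. RNA-seq was carried out on 6 libraries from the immortalized mouse BAT cell line, whose preadipocytes become brown adipocytes in culture. The MICT1 KO group (3 libraries) came from Cas9-expressing pools, not clones, in which the microprotein gene MICT1 was knocked out with guide RNAs, and the labels do not tell which guide each library carried. The Scr group (3 libraries, labelled control and WT) came from the same Cas9-expressing line with a scrambled guide RNA. All cells went through adipogenic differentiation and received 10 µM forskolin, which raises cAMP, for 6 h on day 6. No library without forskolin was analysed here, so each value below is a level after forskolin and not an induction by it. Reads of MICT1 were not analysed here, and the KO labels were therefore not checked on their target.

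In an AP-1 pair, Jun proteins can join with each other or with a Fos protein, whereas Fos proteins need a partner. Fos, Fosb, Jun, Junb and Atf3 are known as early-response genes, switched on within minutes by growth factors, stress or cAMP, the second messenger through which cold and adrenergic signals act on brown fat. Fosl1 and Fosl2 are slower, and in fat cells several AP-1 proteins are known to act on the choice between precursor and adipocyte. Small Maf proteins such as MAFF lack an activation domain and pair with other bZIP proteins, and BATF3 pairs with Jun proteins and is best known in dendritic cells.

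cAMP acts on several of these genes through CREB, a factor that binds the cAMP response element (CRE) TGACGTCA or its core TGACG. AP-1 itself binds TGACTCA, and Jun pairs also bind the variant TGACATCA, the known site of the Jun promoter. RefSeq promoter windows of GRCm38.p6 matched 9 of the 10 members at 11 start sites. The 250 bases before each start were searched on both strands for these 4 motifs, and a TGACG within a TGACGTCA was counted under both. At least 1 motif was found for 6 of the 9 members, namely Fos, Fosb, Jun, Junb, Atf3 and Maff. TGACG was present in 6 of the 11 member windows, from 5 of the 9 members, against 17.8% of the 32851 promoter windows of all genes. For TGACGTCA, TGACATCA and TGACTCA the shares of all windows were 1.55%, 2.93% and 4.46%. Among member windows, TGACGTCA was found only in 1 of Maff, and TGACATCA only in Jun and another of Maff. The AP-1 site TGACTCA was found in no member window. The last 150 bases before the start are shown for the windows in which a motif lay in this stretch, to let early-response members that differed in direction be set side by side. Motif letters are in capitals, all others in lower case, and each sequence is read 5′ to 3′ on the strand of its gene.
Fos, chr12:85473740-85473889, plus strand: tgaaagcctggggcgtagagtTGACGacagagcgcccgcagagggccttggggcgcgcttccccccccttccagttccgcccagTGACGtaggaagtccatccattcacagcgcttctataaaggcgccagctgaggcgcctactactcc
Fosb, chr7:19310046-19310195, minus strand: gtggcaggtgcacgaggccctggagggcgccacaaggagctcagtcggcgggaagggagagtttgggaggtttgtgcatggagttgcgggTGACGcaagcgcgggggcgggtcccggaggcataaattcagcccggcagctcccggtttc
Jun, chr4:95052223-95052372, minus strand: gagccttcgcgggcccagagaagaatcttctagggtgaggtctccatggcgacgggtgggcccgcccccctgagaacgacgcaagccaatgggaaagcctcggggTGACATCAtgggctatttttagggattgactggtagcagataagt
Junb, chr8:84978749-84978898, minus strand: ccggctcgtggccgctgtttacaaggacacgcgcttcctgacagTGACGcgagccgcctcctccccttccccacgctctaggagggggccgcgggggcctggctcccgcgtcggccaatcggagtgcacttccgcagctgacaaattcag
Atf3, chr1:191183334-191183483, minus strand: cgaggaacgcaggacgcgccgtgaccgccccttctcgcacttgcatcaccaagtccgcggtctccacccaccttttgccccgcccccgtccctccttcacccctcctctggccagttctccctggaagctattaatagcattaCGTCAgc
Maff, middle start, chr15:79347370-79347519, plus strand: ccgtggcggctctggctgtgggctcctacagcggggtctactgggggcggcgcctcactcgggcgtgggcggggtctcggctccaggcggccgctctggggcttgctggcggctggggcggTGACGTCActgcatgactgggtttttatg
Maff, last start, chr15:79348252-79348401, plus strand: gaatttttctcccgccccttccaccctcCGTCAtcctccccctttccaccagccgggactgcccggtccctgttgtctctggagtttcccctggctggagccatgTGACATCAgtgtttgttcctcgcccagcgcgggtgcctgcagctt
The core TGACG lay 129 and 66 bases before the start of Fos, 60 before the start used for Fosb and 106 before that of Junb. The Fosb window belongs to a start inside the gene span, whose own upper end is 19310118. Part of this window, with its TGACG, therefore lies within the annotated gene. The variant TGACATCA lay 45 bases before the start in both Jun and the last Maff window, and the middle Maff window held the full TGACGTCA 29 bases before its start. On the opposite strand, where it reads CGTCA as printed, TGACG lay 7 bases before the start of Atf3 and 122 before the last start of Maff. Fosl2, Jund and Batf3 held none of these letters in their windows, nor did the first start of Maff. A match is a string of letters, and binding at these places was not measured.

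All 10 members differed between MICT1 KO and Scr cells (limma-trend, adjusted p under 0.05 over all genes tested), where 56.9% of the 12507 genes tested also did. Of the members, 6 were higher in MICT1 KO, Fos, Jun, Junb, Jund, Atf3 and Maff, against 28.5% of all genes. The other 4, Fosb, Fosl1, Fosl2 and Batf3, were lower, against 28.3% of all genes. Atf3, Fos and Junb were at least 2-fold higher, as were 7.99% of all genes, and no member was at least 2-fold lower, a size that 5.76% of all genes reached. By subgroup, all 3 Jun genes were higher, the Fos genes divided into 1 higher and 3 lower, and 2 of the 3 other bZIP genes were higher. In 9 of the 10 members the 3 KO values did not overlap the 3 Scr values, which held for 62.0% of all genes. All 6 members called higher were among them (30.9% of all genes lay wholly above Scr), with 3 of the 4 called lower (31.2% lay wholly below). The median log2 fold change of the members was 0.78, and that of all genes tested was -0.01. Because the members were chosen with earlier results known, these shares are descriptions and not independent tests. With 3 libraries per group an exact permutation test of a single gene cannot go below p = 0.1, so the calls lean on the variance that limma pools over genes. The labels do not say whether replicates came from separate cultures, and the methods call all replicates biological.

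**Figure D1:**
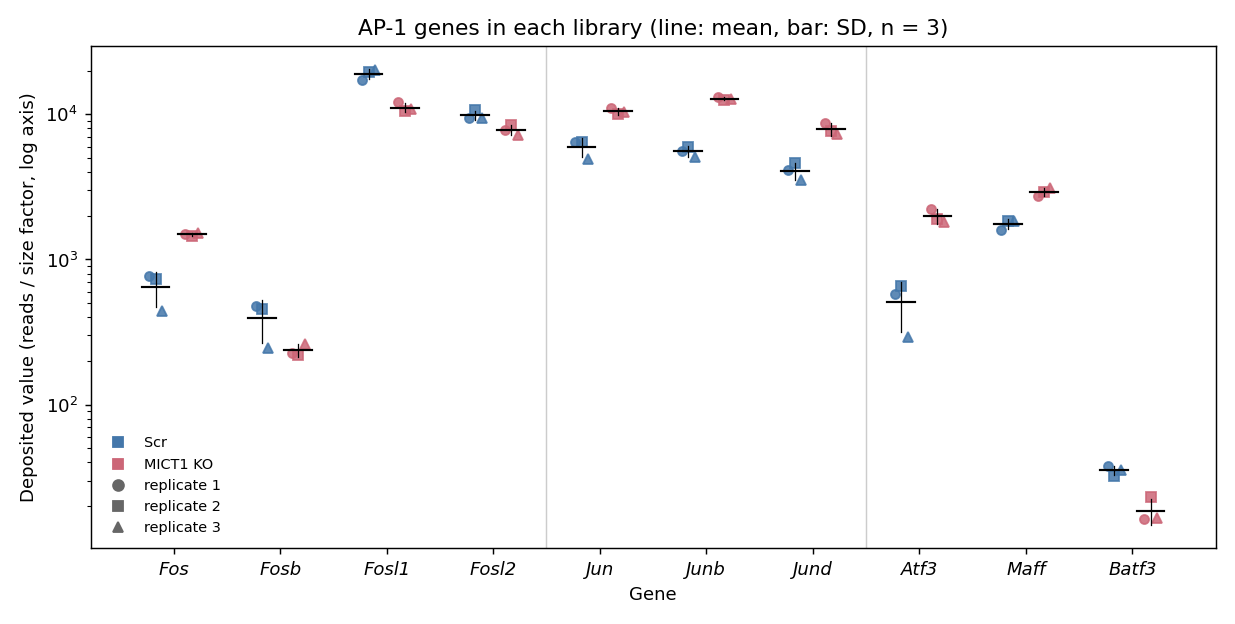
Deposited value of each AP-1 gene in each library (y axis, reads divided by a size factor, log axis) for the Fos genes (left), Jun genes (middle) and other bZIP genes (right), with Scr in blue and MICT1 KO in red. Black lines are means, bars are SD (n = 3) and symbols mark the replicate number, and the groups overlap in Fosb, where Scr replicate 3 at 245 lay below MICT1 KO replicate 3 at 263.

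Fos is the founding member of the family and the one most often used as a marker of recent stimulation. The gene lies at chr12:85473890-85477274 on GRCm38, on the plus strand. Its normalised values were 767, 730 and 445 in Scr replicates 1 to 3 and 1504, 1443 and 1519 in MICT1 KO replicates 1 to 3. Every KO library was above every Scr library, and Scr replicate 3 was the lowest of the 6. The log2 fold change was 1.24 (SE 0.13, 95% interval 0.97 to 1.52, limma-trend adjusted p = 7.11e-08), a 2.36-fold higher level on the log2(value + 1) scale. Without Scr replicate 3 it was 0.99, just under 2-fold.

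Fosb, which like Fos carries an activation domain, went the other way. It lies at chr7:19302696-19310118 on the minus strand. Its values were 482, 454 and 245 in Scr against 228, 219 and 263 in MICT1 KO. Scr replicates 1 and 2 stood above all KO libraries, while Scr replicate 3 fell among them, so the groups overlapped. The log2 fold change was -0.67 (SE 0.18, 95% interval -1.05 to -0.30, limma-trend adjusted p = 0.00346). Without Scr replicate 3 it was -0.98, and without Scr replicate 1 it was -0.50 with an adjusted p of 0.0393. Thus Fos and Fosb were called in opposite directions and their 95% intervals lay on opposite sides of 0. Both had the core TGACG within 70 bases before the start of their window, which for Fosb lies inside the span given above.

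Fosl1 (FRA-1) and Fosl2 (FRA-2) encode Fos-related proteins without the strong activation domain of FOS and FOSB. Fosl1 at chr19:5447698-5455938, plus strand, had values of 17196, 19674 and 20147 in Scr against 12077, 10465 and 10858 in MICT1 KO. All KO values lay below all Scr values, with a log2 fold change of -0.77 (SE 0.06, adjusted p = 2.06e-09 by limma-trend), or 1.71-fold lower. In the GENCODE annotation Fosl1 overlaps Ccdc85b on the opposite strand, and 1163 of the 2033 exon bases of Fosl1 (57.2%) are shared with exons of Ccdc85b. Ccdc85b had values of 9187, 9881 and 8957 in Scr against 6167, 6200 and 6357 in MICT1 KO (log2 fold change -0.58, limma-trend adjusted p = 7.81e-09). The methods describe stranded libraries but do not state whether counting used the strand, and without it the reads of both genes cannot be told apart over this stretch. The level and the fold change of Fosl1 are therefore uncertain. Fosl2 at chr5:32136472-32157840, plus strand, had values of 9362, 10726 and 9504 in Scr against 7829, 8442 and 7211 in MICT1 KO. The groups did not overlap, although its log2 fold change of -0.33 (SE 0.06, limma-trend adjusted p = 0.000137) was the smallest of the 10.

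The Jun genes, which can pair among themselves and with every Fos protein, all have a single exon in their longest annotated transcript. Jun, at chr4:95049036-95052222 on the minus strand, had values of 6448, 6444 and 4908 in Scr against 11077, 10020 and 10322 in MICT1 KO. Its KO values did not overlap the Scr values, and its log2 fold change was 0.83 (SE 0.08, limma-trend adjusted p = 1.32e-08). Junb, often a weaker activator than JUN that can hold JUN back, lies at chr8:84976909-84978748 on the minus strand. Its values were 5599, 5980 and 5054 in Scr against 13180, 12531 and 12800 in MICT1 KO. Here the KO libraries lay close together and far above Scr, and the log2 fold change of 1.21 (SE 0.06, 95% interval 1.09 to 1.34, adjusted p = 2.80e-13 by limma-trend) had the lowest p of the 10 members. Of its 2301 exon bases, 173 (7.52%) overlap Prdx2 on the opposite strand, a gene with a log2 fold change of 0.12 that was not called (limma-trend adjusted p = 0.134).

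Jund, the Jun gene usually described as steadily expressed, was also higher. It lies at chr8:70697739-70700616 on the plus strand, with values of 4102, 4637 and 3548 in Scr against 8759, 7639 and 7312 in MICT1 KO. No KO library fell within the Scr range, and the log2 fold change was 0.95 (SE 0.08, 95% interval 0.79 to 1.12, limma-trend adjusted p = 1.59e-09). Antisense genes overlap both Jun (Junos) and Jund (Gm11175) in the annotation, and the RNA gene Gm24748 overlaps Atf3 on the opposite strand. These overlapping genes were not analysed here, and their part in the values was not tested.

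Atf3, a stress-induced gene whose product represses as a homodimer and can activate when paired with JUN, had the largest change of the 10. It lies at chr1:191170296-191183333 on the minus strand. Its values were 579, 662 and 292 in Scr against 2239, 1902 and 1798 in MICT1 KO. The groups were far apart, Scr replicate 3 again being the lowest, and the log2 fold change was 2.03 (SE 0.18, 95% interval 1.65 to 2.41, limma-trend adjusted p = 5.26e-09), or 4.08-fold higher. Without Scr replicate 3 it was 1.67, the lowest value over all alternatives.

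Maff, the small Maf gene, lies at chr15:79346621-79359078 on the plus strand and had values of 1599, 1829 and 1852 in Scr. In MICT1 KO they were 2745, 2912 and 3131, all above Scr. The log2 fold change was 0.74 (SE 0.07, limma-trend adjusted p = 9.51e-09). Batf3, at chr1:191098414-191108943 on the plus strand, was the least abundant member. Its values were 37.6, 32.4 and 35.6 in Scr against 16.2, 23.2 and 16.6 in MICT1 KO, the lowest values of the 10. These did not overlap, and the log2 fold change was -0.90 (SE 0.36, 95% interval -1.64 to -0.15, limma-trend adjusted p = 0.0380). The call on Batf3 was lost when any one of Scr replicates 1, 2 or 3 or KO replicates 1 or 3 was left out, with adjusted p values of 0.103, 0.0645, 0.0849, 0.0898 and 0.0819.

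**Figure D2:**
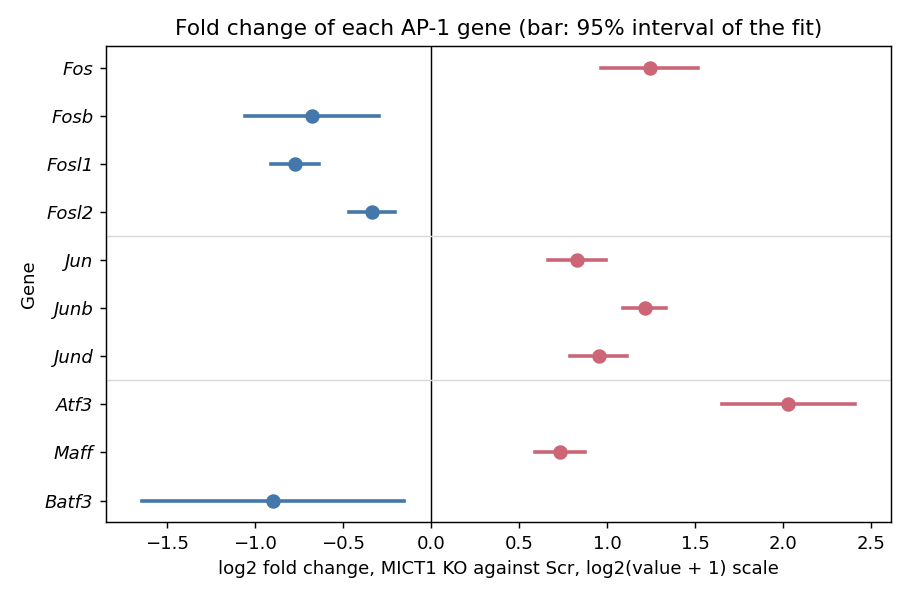
Log2 fold change of each AP-1 gene in MICT1 KO against Scr cells (x axis, log2(value + 1) scale) with the 95% interval of the limma-trend fit (bars, 3 libraries per group), red for higher and blue for lower. The Jun genes sit between 0.83 and 1.21, Atf3 stands farthest out at 2.03, and the widest interval, -1.64 to -0.15, belongs to Batf3.

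To compare levels between genes, values were divided by exon length (RPKM). In Scr cells Fosl1 was by far the most abundant member, at a mean of 571 RPKM, rank 41 among 13142 genes, where its shared exon bases count in full. Jund (150 RPKM), Junb (147), Jun (114), Fosl2 (62.2) and Maff (41.4) followed, then Fos (16.8), Atf3 (14.5), Fosb (3.86) and Batf3 (1.35). Neighbours in this order were separated in all Scr libraries except Jund and Junb, and Fos and Atf3, whose ranges overlapped. In MICT1 KO cells the order began with Junb (342 RPKM, rank 88), Fosl1 (335) and Jund (290), whose ranges overlapped from one to the next. Jun (201 RPKM), Maff (69.2), Atf3 (56.3), Fosl2 (49.5), Fos (38.8), Fosb (2.32) and Batf3 (0.72) came after, with an overlap only between Atf3 and Fosl2. Maff and Atf3 thus passed Fosl2, which had stood above both in Scr. With the longest transcript as the length, Junb was above Jund in Scr (187 and 150 RPKM) and above Fosl1 in KO (435 and 366 RPKM), in each case without overlap, and in KO the mean of Fosl2 was above that of Atf3 with overlapping ranges.

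These per-length levels were also summed by subgroup, as a description without a test. The 4 Fos genes together came to 654 ± 37.7 RPKM in Scr and 426 ± 22.5 RPKM in MICT1 KO (SD, n = 3), with Fosl1 the largest term in both. The 3 Jun genes came to 411 ± 46.6 RPKM in Scr and 833 ± 39.9 RPKM in MICT1 KO. The ratio of Jun to Fos transcripts was 0.704, 0.663 and 0.527 in Scr against 1.95, 1.97 and 1.95 in KO, so Fos transcripts were in excess in every Scr library and Jun transcripts in every KO library. Within the Fos genes, Fosl1 made up 87.3% ± 1.62 of the sum in Scr and 78.7% ± 1.41 in KO, and Fos 2.60% ± 0.82 and 9.12% ± 0.47 (SD, n = 3). Within the Jun genes the make-up moved less, Junb holding 35.9% ± 1.33 in Scr and 41.1% ± 1.31 in KO, Jun 27.6% ± 1.52 and 24.1% ± 0.36, and Jund 36.5% ± 1.01 and 34.8% ± 1.54 (SD, n = 3). These sums count transcripts and not protein, and the Fosl1 term holds the stretch shared with Ccdc85b. If counting did not use the strand, the Jun and Jund terms may also hold reads of their antisense genes. The Fos excess in Scr and the fall of the Fos sum both rest on Fosl1, at 571 RPKM in Scr and 335 RPKM in KO. Fosl2, Fos and Fosb had means of 62.2, 16.8 and 3.86 RPKM in Scr, together far below the Jun sum. In KO their means were 49.5, 38.8 and 2.32 RPKM, also far below the Jun sum.

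**Figure D3:**
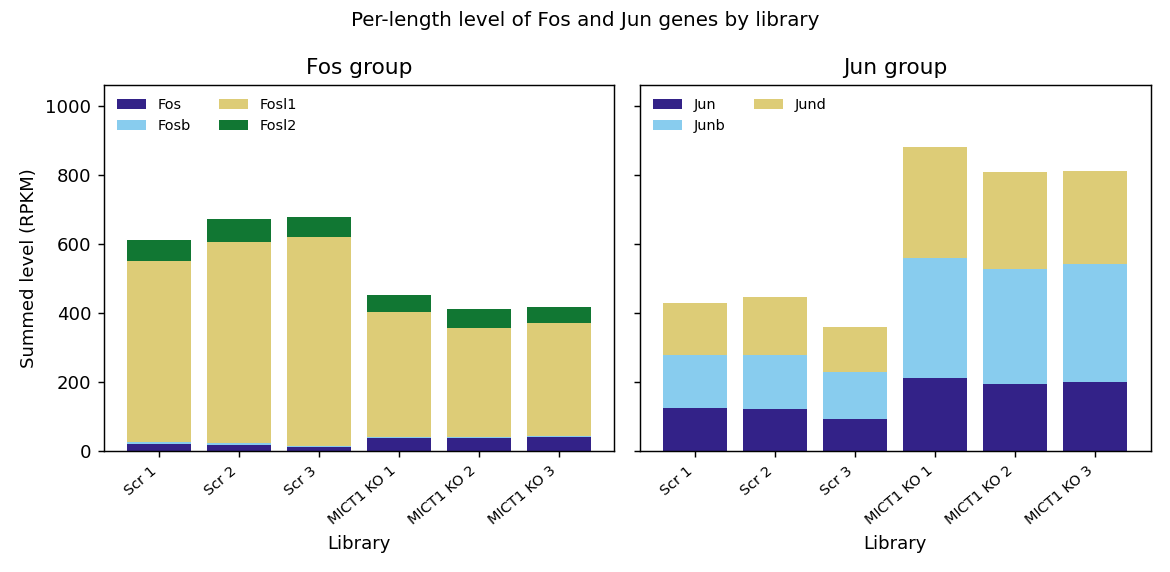
Summed RPKM (y axis) of the Fos genes (left) and the Jun genes (right) in each of the 6 libraries (x axis), coloured by gene. The Fos stack falls from 610 to 679 RPKM in Scr to 410 to 452 RPKM in MICT1 KO, while the Jun stack rises from 358 to 445 RPKM to 809 to 879 RPKM. Most of the Fos stack is Fosl1, whose level is uncertain, and the fall of the stack rests on Fosl1.

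Atf3, Fosb and Fos varied most among the Scr libraries. The coefficient of variation in Scr was 38.0% for Atf3, 32.8% for Fosb and 27.2% for Fos, and it was 11.6%, 9.87% and 2.68% in MICT1 KO. Jun (15.0%) and Jund (13.3%) came next in Scr, and the other members were between 7.37% and 8.39%. Scr replicate 3 was the lowest of the Scr libraries for 6 members, Fos, Fosb, Jun, Junb, Jund and Atf3, whereas for Fosl1 and Maff it was the highest. Over the 24 genes of an early-response list it was the lowest Scr library for 16 (66.7%), against 34.6% of all genes tested, and Scr replicate 2 was the highest for 17 (70.8%), against 31.5%. Without Scr replicate 3, 6 members were still called higher and 3 lower, the missing call being Batf3.

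**Figure D4:**
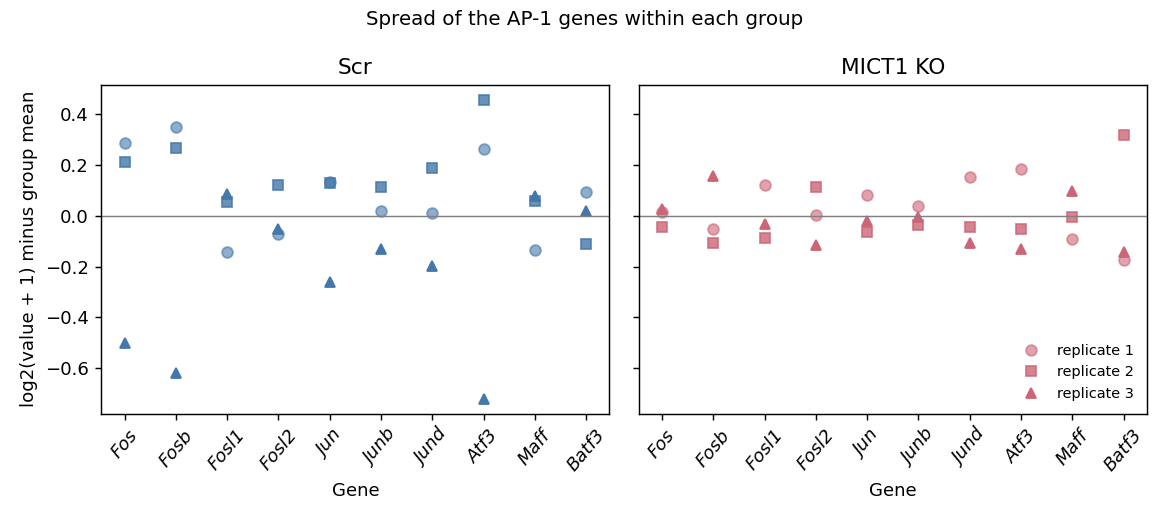
Difference of log2(value + 1) in each library from the mean of its group (y axis) for each AP-1 gene (x axis), Scr on the left and MICT1 KO on the right, with symbols for replicates 1 to 3. Scr replicate 3 lies lowest for Fos, Fosb, Jun, Junb, Jund and Atf3, and the KO libraries lie closer together for these genes.

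Other bZIP genes that can pair with AP-1 proteins were examined as a list of 21 genes, 17 of which were tested. This list and the regulator, target and early-response lists below were written with earlier results of these data known. Their shares are therefore descriptions and not independent tests. Of these, 8 were higher in MICT1 KO (47.1%, against 28.5% of all genes) and 2 lower (11.8%, against 28.3%), with a median log2 fold change of 0.11. Jdp2, whose product pairs with Jun proteins and represses, had values of 181, 132 and 152 in Scr against 529, 537 and 438 in KO, all KO above Scr (log2 fold change 1.70, SE 0.14, limma-trend adjusted p = 1.16e-09). The small Maf gene Mafk rose by 1.03 on the log2 scale (SE 0.08, limma-trend adjusted p = 5.21e-10), as its relative Maff did. Mafg, another small Maf gene, was not called (-0.14, limma-trend adjusted p = 0.153), and its KO values lay below its Scr values. Mafa, a large Maf gene at 8.9, 16.7 and 17.3 in Scr, and higher in all 3 KO libraries, rose by 1.75 (SE 0.37, limma-trend adjusted p = 0.000480). The genes called lower were Atf7, a relative of Atf2 (-0.55, limma-trend adjusted p = 4.90e-08), and Cebpb, an early driver of fat cell differentiation (-0.45, limma-trend adjusted p = 4.42e-07).

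Genes that act on AP-1 from above were called in both directions, at shares near those of all genes. Of 36 tested in a list of 39, 9 were higher (25.0%, against 28.5% of all genes) and 13 lower (36.1%, against 28.3%), and the median was -0.04. The largest rises were in Dusp6, an ERK phosphatase (1.49), Dusp1, a phosphatase of JNK and p38 (1.41), and Fbxw7, part of a ubiquitin ligase that marks JUN for degradation (1.23). Their limma-trend adjusted p values were 5.62e-11, 8.49e-10 and 7.17e-11. Falls were largest in Dusp4, a nuclear MAP kinase phosphatase (-1.10), Ncoa1, a coactivator (-0.70), and Map2k4, a kinase of JNK (-0.55), with limma-trend adjusted p values of 9.55e-11, 3.62e-06 and 6.21e-07. Further genes were looked up after their values were seen. Srf, which drives Fos through its serum response element, rose by 0.87 (limma-trend adjusted p = 1.22e-10). The JNK genes Mapk8 (-0.06, adjusted p = 0.511) and Mapk9 (0.09, adjusted p = 0.279) were not called by limma-trend, nor was Creb1 (0.03, adjusted p = 0.781). The CREB coactivator genes Crtc1, Crtc2 and Crtc3 were lower, at -0.21, -0.22 and -0.51 (limma-trend adjusted p = 0.0139, 0.0101 and 4.45e-05).

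In a list of genes described elsewhere as AP-1 targets, written with earlier results of these data known, most were higher in MICT1 KO. Of 34 tested in a list of 35, 27 were higher (79.4%, against 28.5% of all genes) and 5 lower (14.7%, against 28.3%). The median log2 fold change was 1.17. Il6, a cytokine gene, had values of 246, 258 and 164 in Scr against 7635, 7302 and 6398 in KO, a log2 fold change of 5.02 (SE 0.12, limma-trend adjusted p = 2.06e-18). The chemokine gene Cxcl1 went from 3083, 3431 and 3023 in Scr to 40104, 36998 and 38064 in KO (3.60, SE 0.06, limma-trend adjusted p = 3.69e-21). Ccl2, another chemokine gene, went from 653, 470 and 370 to 5060, 4943 and 5379 (3.40, SE 0.12, limma-trend adjusted p = 2.08e-15). None of these groups overlapped. Hmox1, which breaks down haem, fell from 15656, 18514 and 18803 to 4428, 3537 and 4640 (-2.08, SE 0.08, limma-trend adjusted p = 9.22e-15), and Sphk1, a sphingosine kinase, fell by 0.64 on the log2 scale. The gelatinase gene Mmp9, at 9.9, 40.8 and 34.6 in Scr against 14.3, 12.6 and 3.1 in KO, overlapped between groups (-1.41, SE 0.59, limma-trend adjusted p = 0.0468) and lost its call in 4 alternatives. Other factors, such as NF-kB, are also known to drive many genes of this list, and AP-1 binding was not measured here.

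Another 24 early-response genes formed a list that was also written with earlier results of these data known. Of these, 16 were higher (66.7%, against 28.5% of all genes) and 4 lower (16.7%, against 28.3%), and the median was 0.76. Ier3, a survival gene (2.11), the zinc finger factor gene Egr1 (1.82) and Gadd45b, a stress sensor gene (1.71), rose most, with limma-trend adjusted p values of 4.61e-16, 1.38e-15 and 5.42e-12. The largest falls were in Rgs2, a regulator of G protein signaling (-0.92), the clock gene Per1 (-0.41) and the kinase gene Sik1 (-0.20), with limma-trend adjusted p values of 2.82e-08, 7.89e-06 and 0.0112. The values of Sik1 overlapped between groups, and its call was lost without Scr replicate 2 (adjusted p = 0.107) and without KO replicate 3 (adjusted p = 0.0543) in the limma-trend fit. Without Scr replicate 2 the lower count was 2 instead of 4. Dusp1 is in the regulator, target and early-response lists and Crem is in 2 of them.

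**Figure D5:**
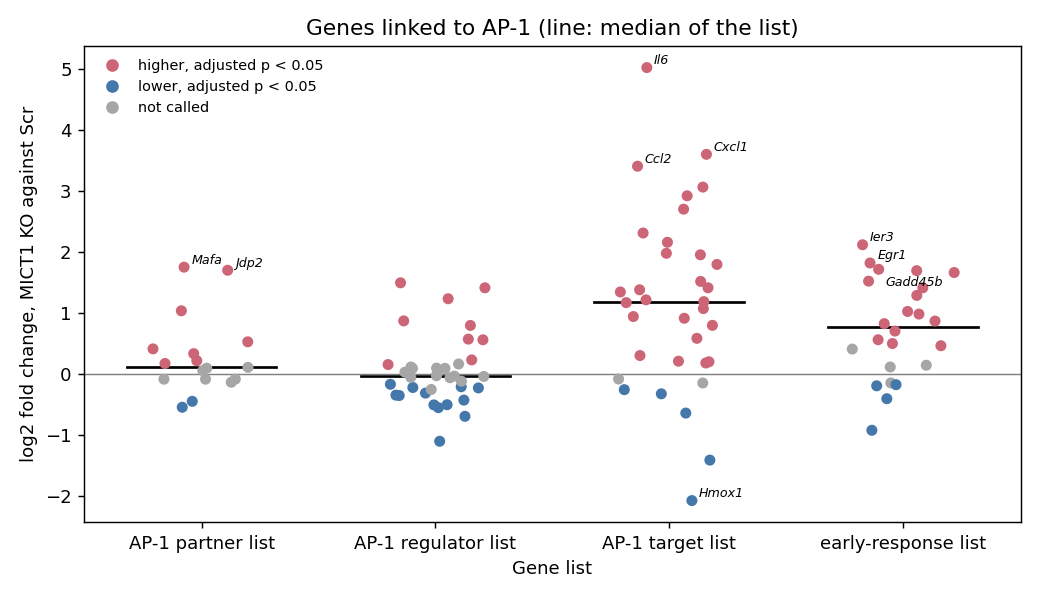
Log2 fold change in MICT1 KO against Scr cells (y axis) of the genes tested in 4 lists linked to AP-1 (x axis), 1 point per gene, red for higher and blue for lower at a limma-trend adjusted p under 0.05 and grey for genes not called. Black lines are medians, at 0.11, -0.04, 1.17 and 0.76 from left to right.

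The cells in both groups also differed in markers of cell type. All 8 genes tested of the brown adipocyte marker list (14 genes, 9 in the table) were lower in MICT1 KO. They were Ucp1, Adipoq, Fabp4, Pparg, Plin1, Lipe, Lpl and Cd36. The paper counts Pparg, Fabp4 and Adipoq among adipogenic markers. The summed level of the 9 was 6706 to 8040 CPM in Scr and 846 to 1223 CPM in KO. Fabp4 and Lpl made up most of it, at means of 3261 and 3364 CPM in Scr and 335 and 624 CPM in KO. Adipoq, which encodes adiponectin, had values of 733, 468 and 672 in Scr against 7.6, 3.2 and 5.2 in KO, and Ucp1, the uncoupling protein gene of brown fat, was low in both groups at 20.8 to 30.5 and 1.1 to 9.3. Cidea, Dio2, Elovl3, Prdm16 and Cox8b were not analysed here. Ppargc1a was in the table but not tested, and its low values overlapped between groups. A fall in brown markers apart from fat cell markers in general was therefore not tested. All 8 markers of dividing cells were higher (28.5% of all genes were), at 1383 to 1544 CPM in Scr and 2363 to 2624 CPM in KO. Preadipocyte markers summed to 341 to 388 CPM and 376 to 407 CPM, with 3 of 6 tested higher (28.5% of all genes) and 2 lower (28.3%). The sum held opposite changes. Dlk1 fell from 727, 661 and 674 in Scr to 58.2, 44.3 and 89.1 in KO (log2 fold change -3.47, limma-trend adjusted p = 1.52e-12). Ly6a rose most, by 1.39 on the log2 scale (limma-trend adjusted p = 2.78e-10). Of 10 macrophage markers 4 were in the table, at 16.6 to 23.1 CPM in Scr and 31.8 to 39.2 CPM in KO, and 1 of them, Cd14, was higher, while the defining Adgre1, Ptprc, Itgam and Lyz2 were not analysed here. Of 6 endothelial markers only Cdh5 was analysed, at 0.37 to 0.73 CPM in Scr and 1.59 to 2.03 CPM in KO, and it was called higher. In such bulk samples fewer cells of a type and less RNA per cell cannot be told apart. The part of these differences in the AP-1 results was not tested.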

How the data were processed

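RNA-seq covered 3 Scr and 3 MICT1 KO libraries. The authors deposited a normalized signal per gene, read from the values as estimated reads divided by a size factor per library (88.7% to 90.2% of values under 20 came within 0.01 reads of a whole number, too few to recover counts). The submitters' processing notes name STAR, Partek, DESeq2, GRCm38 and mm10. The counting model, its use of strand and the annotation are not given in the sources used here. The labels name a sequencing company and the methods a stranded total RNA kit. The table has 13283 genes, all above 0 in all 6 libraries, and estimated depth was 15445051 to 17925566 reads per library. Intervals cover the spread between these libraries only.

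limma 3.58.1 in R 4.3.3 was used (limma-trend on log2(value + 1), 12507 genes, kept when 3 or more libraries reached a value of 10, two-sided, Benjamini-Hochberg over all genes tested, threshold 0.05). The fit foreseen for raw counts was not used. On simulated data, 100 of 100 genes changed 2-fold and 100 of 100 changed 4-fold were called in the right direction. There were 9 false calls among the 12416 genes tested, of which 200 had been changed. Only genes with a mean Scr value of at least 50 were changed, and they varied less between libraries than Atf3, Fosb and Fos did in Scr. Changes under 2-fold, which most members had, were not simulated, so the recovery of such calls was not measured. CPM and RPKM were computed from the sums of the deposited values and GENCODE vM21 exon lengths, found for 13142 genes, and figures with matplotlib. Positions and promoter sequences are from RefSeq, GRCm38.p6. All members were named, with the 3 largest rises and falls called in each AP-1 list, plus markers. Members and lists were chosen with earlier results of these data known. The alternatives were other scalings, limma-voom, pseudocounts of 0.5 and 5, no filter or one at 50, a replicate block, each library left out, and the longest transcript as length.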

Additional observations from a re-analysis of the deposited data

How the results depend on the processing

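Over 14 alternatives the members kept call and direction in 134 of 139 fits, and Fosb, Fosl1, Fosl2, Fos, Jun, Junb, Jund, Atf3 and Maff did so in all of theirs. The exceptions were 5 fits of Batf3 with a library left out, where its log2 fold change ran from -0.95 to -0.81 and its adjusted p up to 0.103. Over all 6 such fits it ran from -1.06 to -0.81. With a minimum value of 50 it was not tested. Leaving out a library gave 3 or 4 members called lower and always 6 called higher, and 2 to 4 early-response genes called lower. The 23 other named genes of the lists kept their call in 314 of 320 fits, and the losses were Mmp9 in 4 and Sik1 in 2. Replicate numbers did not pair the libraries (correlations of -0.02, -0.02 and 0.06 between same-numbered deviations). With them as a replicate block, 7055 genes were called instead of 7113, 3543 higher and 3512 lower, and 6 members were higher and 4 lower. With the longest transcript as length, Fosl1 made up 84.1% of the Fos sum in Scr and 75.2% in KO, and the ratio of Jun to Fos transcripts was 0.61 and 1.90. With values of 16.2 to 37.6, Batf3 is limited by depth.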

Other observations

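Atf3 and Batf3 lie 61352 bases apart on chromosome 1 and were called in opposite directions, with log2 fold changes of 2.03 and -0.90. Rn45s, the ribosomal RNA precursor gene, took 1.92% of the summed values in Scr replicate 2 and 0.51% to 0.83% in the other libraries.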
